A study of Sus scrofa with 8 samples.

Results

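The 5 genes described here serve oxygen transport and iron balance: the globin genes HBB and HBM, the globin chaperone gene AHSP, the heme synthesis gene ALAS2 and the iron regulator gene IREB2. They were chosen by earlier results of these same arrays. In those, HBM, AHSP and ALAS2 were lower at the high dose of glial growth factor 2 (GGF2), and IREB2 at both doses. HBB was not lower at the high dose. The differences of the 5 genes between groups are therefore given as a description, without a test. Every probe set with 1 of these symbols as its single annotation was taken. Each gene had 1 such probe set, so the members are 5 of 6765 genes with a single symbol and 5 of 23999 probe sets tested. All 5 could be measured on all 8 arrays, and no member was lost to a filter.

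The study measured RNA from the left ventricle of Yorkshire pigs with a myocardial infarct, in muscle away from the scar, on 1 Affymetrix porcine array per animal. All animals were castrated males under 1 year of age, with a mean weight of 54.5 kg. There were 3 untreated animals, 3 animals given GGF2 at 0.67 mg/kg per infusion for 4 weeks (low dose) and 2 given 2.0 mg/kg per infusion for 4 weeks (high dose). All 8 animals had an infarct, and the labels do not say whether the untreated ones received a vehicle infusion. GGF2 belongs to the neuregulin-1 family of ligands, which signal to heart muscle through ERBB receptors. Values are log2 expression after robust multi-array averaging (RMA) by the authors. The lower quartiles of the arrays lay at 3.72 to 3.80, and values near or below them were taken as close to background, where the size of a difference is not exact. The 14 measured cardiomyocyte markers had a summed level, the log2 of the sum of their unlogged values, between 17.60 and 17.70 in every animal, a sum set mainly by bright sarcomere genes such as MYH7 and TNNI3. The natriuretic peptide genes NPPB and NPPA on the same list, which heart muscle makes under load, were lower at the high dose than in untreated animals without overlap, by log2 differences of -2.25 ± 0.59 and -1.34 ± 0.52 (SE; limma adjusted p = 0.392 and 0.559). The 2 high-dose animals differed for NPPA, at 8.21 and 6.09 against 8.45 to 8.59 in untreated ones. NPPA was also lower at the low dose without overlap, by -0.57 ± 0.46 (limma adjusted p = 0.998). The number of arrays limits the precision.

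Red blood cells carry oxygen on hemoglobin, a protein of alpha-type and beta-type globin chains that each hold a heme group. ALAS2 is the red cell form of the enzyme that starts heme synthesis, while ALAS1 does the same step in other tissues. IREB2 encodes iron regulatory protein 2, which binds iron-responsive elements in messenger RNAs and so adjusts the translation or stability of transcripts for iron uptake, iron storage and, through ALAS2, heme synthesis in red cell precursors. The protein is known to be controlled mainly through its breakdown when iron is plentiful, which an array of RNA does not measure. In whole muscle, globin and ALAS2 transcripts are usually taken to come from blood held in the tissue, chiefly from young red cells that still contain RNA. In such bulk samples, fewer cells of a type and less RNA per cell cannot be told apart.

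HBB, the beta chain of adult hemoglobin, measured 8.93, 8.75 and 8.79 in the 3 untreated animals, 8.45, 8.71 and 8.99 at the low dose and 8.99 and 8.89 at the high dose. The 3 groups overlapped, and the low-dose animals alone spanned the whole range. The mean was 8.94 ± 0.07 at the high dose (SD, n = 2) and 8.82 ± 0.09 in untreated animals (SD, n = 3), a log2 difference of 0.12 ± 0.16 (SE). At the low dose the difference from untreated animals was -0.11 ± 0.15. HBB was thus the 1 member with a higher mean at the high dose than in either of the other groups, by amounts within the spread of the animals.

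HBM, an alpha-type globin gene called hemoglobin mu, measured 5.73, 5.29 and 5.54 in untreated animals, 5.38, 5.99 and 5.60 at the low dose and 5.02 and 5.15 at the high dose. Both high-dose animals lay below all 6 others, while the low-dose and untreated animals overlapped. The mean was 5.08 ± 0.09 at the high dose (SD, n = 2) and 5.52 ± 0.22 in untreated animals (SD, n = 3), a log2 difference of -0.43 ± 0.20 (SE). At the low dose the mean was 5.66 ± 0.31 (SD, n = 3), and the difference from untreated animals was 0.14 ± 0.18. Globin genes resemble each other in sequence, and whether the HBB or HBM probe set also detects another globin transcript was not tested.

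AHSP encodes the alpha hemoglobin stabilizing protein, which holds free alpha globin until it pairs with a beta chain. It measured 4.04, 3.90 and 4.00 in untreated animals, 4.02, 4.09 and 3.89 at the low dose and 3.71 and 3.28 at the high dose. All of these values were dim, with a mean over the 8 arrays at percentile 26.8 of all probe sets, and both high-dose values lay at or below the lower quartile of the arrays. The mean was 3.50 ± 0.30 at the high dose (SD, n = 2) and 3.98 ± 0.07 in untreated animals (SD, n = 3). The log2 difference of -0.49 ± 0.15 (SE) has no exact size so close to background, and it was -0.27 without high-dose replicate 2. The low-dose animals averaged 4.00 ± 0.10 (SD, n = 3), 0.02 ± 0.13 above the untreated ones.

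ALAS2 measured 5.48, 5.48 and 5.66 in untreated animals, 5.52, 5.48 and 5.45 at the low dose and 4.71 and 5.17 at the high dose. The 6 untreated and low-dose animals lay close together, and both high-dose animals lay below them, the lower of them being replicate 1. The mean was 4.94 ± 0.33 at the high dose (SD, n = 2) and 5.54 ± 0.10 in untreated animals (SD, n = 3), a log2 difference of -0.60 ± 0.15 (SE). It was -0.37 without high-dose replicate 1 and -0.83 without high-dose replicate 2. The low dose differed from untreated animals by -0.05 ± 0.14.

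IREB2 measured 6.29, 6.15 and 6.28 in untreated animals, 5.67, 5.32 and 5.60 at the low dose and 5.46 and 5.35 at the high dose. All 5 treated animals lay below all 3 untreated ones, and the doses overlapped each other. The mean was 5.41 ± 0.08 at the high dose (SD, n = 2) and 6.24 ± 0.07 in untreated animals (SD, n = 3), a log2 difference of -0.83 ± 0.14 (SE). At the low dose the mean was 5.53 ± 0.19 (SD, n = 3), and the difference from untreated animals was -0.71 ± 0.12. Between the doses the difference was -0.12 ± 0.14 (high minus low), smaller than its error. The high-dose and low-dose differences of IREB2 thus lay close together, while those of ALAS2, AHSP and HBM lay well below 0 at the high dose and near 0 at the low dose.

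**Figure D1:**
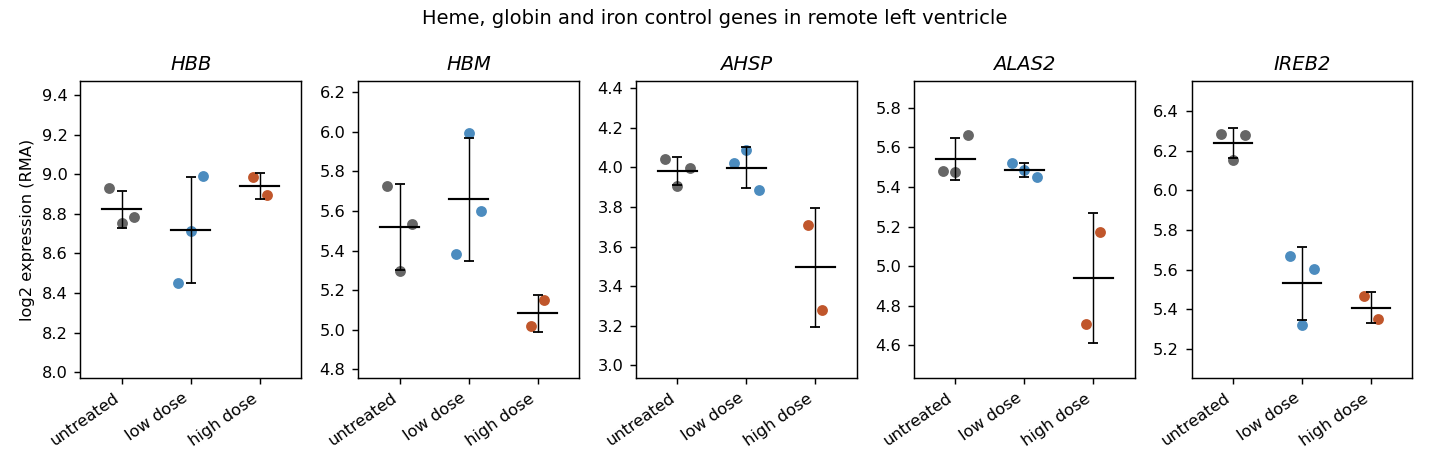
Log2 expression of the 5 members in each animal, with untreated, low-dose and high-dose animals from left to right in each panel; points are animals, long bars are means and error bars are the SD, and every panel spans the same number of log2 units. Both high-dose animals sit below all others for HBM, AHSP and ALAS2, and all 5 treated animals sit below the untreated ones for IREB2, while the groups overlap for HBB.

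Ordered by their means, the 3 groups ran low dose, untreated, high dose for HBB and high dose, untreated, low dose for HBM and AHSP. For ALAS2 and IREB2 the order was high dose, low dose, untreated. Between untreated and low-dose animals, the ranges overlapped for every member other than IREB2. The high dose stood apart from the low dose for HBM (-0.57 ± 0.20), AHSP (-0.50 ± 0.15) and ALAS2 (-0.54 ± 0.15), with no overlap in any of the 3, and for HBB the difference was 0.22 ± 0.16 with overlapping ranges.

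Against untreated animals, 4 of the 5 members were lower at the high dose with no overlap between the groups. Among all probe sets tested, 12% were lower at the high dose without overlap. Since the members were picked for these contrasts, nothing is read from their count or from their median difference. At the low dose 1 member, IREB2, was lower without overlap, against a background of 3.87%. Between the doses 3 members were lower at the high dose without overlap, against 13.0%. The median log2 difference over the 5 members was -0.49 for high dose against untreated, -0.05 for low dose against untreated and -0.50 for high against low dose, where all probe sets had medians of 0.01, 0.01 and 0.01. Over all probe sets, the log2 differences at the lower and upper 5 percent were -0.46 and 0.37 for high dose against untreated and -0.28 and 0.33 for low dose against untreated.

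In limma's fit across all 23999 probe sets, 0 of the 5 members had an adjusted p under 0.05 in any of the 3 comparisons. The share of all probe sets that passed was 0% for high dose against untreated, 0% for low dose against untreated and 0.0250% for high against low dose. At an unadjusted p under 0.05, 1913, 1081 and 2455 probe sets passed in these 3 comparisons. The 2 comparisons with the high dose share its 2 animals, and the 2 comparisons with untreated share those 3 animals, so their values are not independent of each other.

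**Figure D2:**
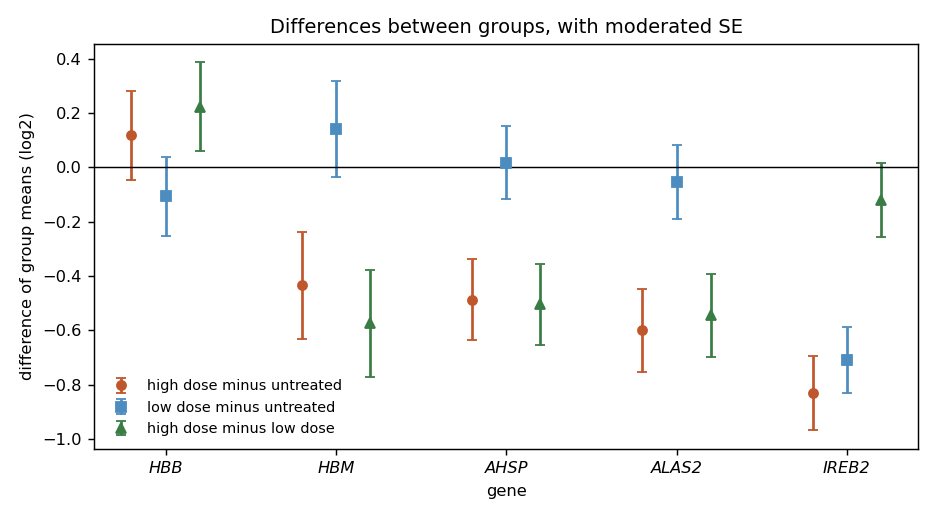
Differences of group means on the log2 scale for the 5 members, with error bars showing the moderated SE from the fit to all 8 arrays. For HBM, AHSP and ALAS2 the high dose lies between 0.43 and 0.60 log2 units below untreated animals and the low dose lies near 0, whereas for IREB2 both doses lie below untreated animals, by 0.83 and 0.71.

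The members were then compared with each other across the 8 animals, in 10 pairs. Since HBM, AHSP and ALAS2 were all chosen for low values in the same 2 high-dose animals, a correlation between them over all animals is partly built in, and the correlations are given as a description without a test. HBM and AHSP had Pearson's r = 0.70 and Spearman's rho = 0.81, and without low-dose replicate 2 and high-dose replicate 1, the animals farthest from the HBM median, r was 0.72. HBM and ALAS2 had r = 0.67 and rho = 0.57, and r = 0.60 without the same 2 animals. AHSP and ALAS2 had r = 0.60 and rho = 0.76, but r = 0.21 without the 2 high-dose animals, so that relation rests on them. HBB had r = -0.16 with HBM, -0.41 with AHSP and -0.49 with ALAS2.

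After each gene was centred on its group means, r was 0.17 for HBM and AHSP, 0.13 for HBM and ALAS2 and -0.71 for AHSP and ALAS2. For HBB the centred r was 0.39 with HBM, where the sign turned, -0.05 with AHSP and -0.31 with ALAS2. The 2 high-dose animals went opposite ways for AHSP and ALAS2, since replicate 1 had the lower ALAS2 value and replicate 2 the lower AHSP value. IREB2 had r = 0.52 with ALAS2 and 0.45 with AHSP over all animals, and -0.15 and 0.10 after centring.

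**Figure D3:**
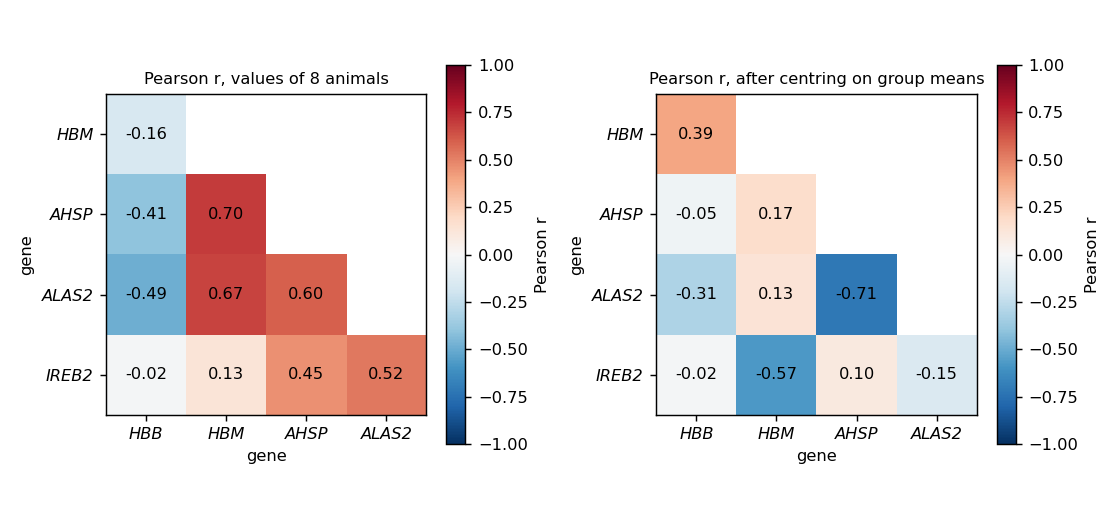
Pearson correlations between the members over the 8 animals, from the values themselves (left) and after centring each gene on its group means (right); each cell is 1 pair of genes and prints its r. On the left the 3 pairs of HBM, AHSP and ALAS2 stand at 0.60 to 0.70, and on the right at 0.17, 0.13 and -0.71. HBB stands on the left at -0.16 with HBM, -0.41 with AHSP and -0.49 with ALAS2.

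Among 4919 other genes brighter than the median, the patterns most like ALAS2 over the 8 arrays were those of CDC42BPA, a kinase that acts on the cytoskeleton (r = 0.97), the laminin chain LAMB1 (r = 0.96) and the RNA processing factor CLP1 (r = 0.95). CDC42BPA also stands on the list of transcripts with an iron-responsive element, which in CDC42BPA is known from human. It measured 8.34, 8.46 and 8.53 in untreated animals, 8.39, 8.40 and 8.32 at the low dose and 7.94 and 8.17 at the high dose. Most like HBM were TMEM42 (r = 0.96) and BANP (r = 0.95), and most like AHSP were CSPP1 (r = 0.97) and POGK (r = 0.95). The gene most like HBB was RAMP1, a partner protein of the calcitonin-type receptors (r = 0.98). Whether other globins resemble HBB cannot be read from this search. HBM was left out as a member, and HBE1 and NGB were too dim to enter. Most like IREB2 were NREP (r = 0.97), PTTG1 (r = 0.91), C1QTNF12 (r = 0.89), UBXN6 (r = 0.89) and FEN1 (r = 0.88). These correlations were the highest among 4919 genes over only 8 arrays that share their groups, and they carry no test.

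Beyond the members, 73 of 151 genes on 9 lists for heme, iron and red cells were measured. In limma's fit over all probe sets 0 of the 73 passed in any of the 3 comparisons, the smallest adjusted p being 0.405 for high dose against untreated, 0.998 for low dose against untreated and 0.271 for high against low dose. At an unadjusted p under 0.05, 6, 4 and 9 of the 73 passed, or 8.22%, 5.48% and 12.3%, against 7.97%, 4.50% and 10.2% of all probe sets. At the high dose 44 were higher and 29 lower than in untreated animals, with a median log2 difference of 0.04, and the shares past the unadjusted threshold were close to those of all probe sets.

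Here and below, a gene is said to have risen or fallen if its limma adjusted p was under 0.05 in any comparison. In both comparisons with untreated animals 0 of 23999 probe sets passed, so a count of 0 there was fixed for any list. For high against low dose 6 of 23999 passed. Of the heme synthesis genes, 6 of 9 were measured, and 0 rose and 0 fell in this sense. By sign alone, 3 were higher and 3 lower at the high dose than in untreated animals. ALAS1, the form of the enzyme used outside red cells, measured 10.63 and 10.03 at the high dose and 10.15, 9.72 and 9.91 in untreated animals, a log2 difference of 0.40 ± 0.20 (SE; limma adjusted p = 0.672), with overlap. Its dimmer probe sets were at 0.66 and 0.98 (limma adjusted p = 0.63 and 0.49), with both high-dose animals above all untreated ones on each. The direction was thus opposite to that of ALAS2 at the same dose. ALAD, which carries out the next step, measured 7.42, 7.50 and 7.71 at the low dose and 7.98, 8.09 and 8.05 in untreated animals, a difference of -0.50 ± 0.12 (limma adjusted p = 0.998) without overlap, while at the high dose it was at 0.03. Ferrochelatase (FECH), which inserts the iron, was at 0.08 ± 0.15 at the high dose and -0.18 ± 0.13 at the low dose. SLC25A38, a mitochondrial carrier needed for heme synthesis in red cell precursors, was at -0.38 at both doses, PPOX at -0.06 and -0.07, and UROD at -0.05 at the high dose and 0.05 at the low dose.

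For heme breakdown and transport, 9 of 18 genes were measured, and 0 rose and 0 fell. CD163, the macrophage receptor that clears hemoglobin bound to haptoglobin, measured 6.55 and 6.38 at the high dose and 7.34, 7.93 and 6.91 in untreated animals, a difference of -0.93 ± 0.30 (limma adjusted p = 0.476) without overlap, and -0.45 on its dimmer probe set. Heme oxygenase 2 (HMOX2), the constitutive heme-degrading enzyme, was at -0.18 at the high dose and -0.39 at the low dose, the porphyrin transporter ABCB6 at -0.34 and -0.10, and the heme-binding PGRMC1 at 0.16 and -0.03. Heme oxygenase 1 (HMOX1), the inducible enzyme, was named after its values were seen: it measured 8.18 and 6.23 at the high dose and 6.02, 7.04 and 5.96 in untreated animals. A single high-dose animal, replicate 1, was thus high, and it was also the animal with the lowest ALAS2 value.

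Beside IREB2, 7 of 11 other genes of iron and oxygen sensing were measured. Of these 0 rose and 0 fell, and their log2 differences at the high dose ran from -0.05 to 0.22. Iron regulatory protein 1, the sister protein of IREB2, is encoded by ACO1, which was at 0.05 ± 0.14 at the high dose and 0.05 ± 0.12 at the low dose (limma adjusted p = 0.967 and 0.998). Its dimmer probe sets were at 0.19 and 0.42 at the high dose. FBXL5, the iron-sensing part of the ligase that marks iron regulatory proteins for breakdown, was at -0.05 ± 0.14 and -0.10 ± 0.13, and the ligase scaffold CUL1 at 0.06 and 0.11. The oxygen-regulated factors HIF1A and EPAS1 were at -0.01 and 0.22 at the high dose and 0.02 and 0.13 at the low dose. The prolyl hydroxylases EGLN1 and EGLN2, which mark these factors for breakdown, were at 0.14 and -0.01 at the high dose and -0.18 and 0.15 at the low dose.

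Of the 9 transcripts listed as carrying an iron-responsive element besides ALAS2, 6 were measured, with 0 rising and 0 falling. The ferritin chains that store iron are FTH1, at -0.08 ± 0.13 at the high dose and 0.02 ± 0.12 at the low dose, and FTL, at -0.18 ± 0.17 and -0.05 ± 0.15. A dimmer FTL probe set was at 0.55 at the high dose. CDC42BPA was at -0.39 ± 0.12 at the high dose (limma adjusted p = 0.449), with both animals below all untreated ones, and at -0.07 at the low dose, while its other probe set was close to background and at -0.08 at the high dose. The transferrin receptor TFRC, which brings iron into cells and whose messenger RNA iron regulatory proteins stabilise, was dim and was named after its values were seen. It measured 3.91 and 4.16 at the high dose and 4.64, 4.02 and 4.17 in untreated animals, a difference of -0.25 ± 0.22 (limma adjusted p = 0.845), with overlap, and its low-dose difference was -0.00 ± 0.20. Among 13 measured genes of iron uptake, storage and export, 0 rose and 0 fell, and the ferritin receptor for autophagy, NCOA4, was at 0.16 and -0.16 and the iron chaperone PCBP2 at 0.02 and 0.16. Among the 14 measured genes of iron-sulfur cluster assembly, 0 rose and 0 fell, and the chaperone HSPA9 was at 0.29 ± 0.10 at the high dose (limma adjusted p = 0.526). The assembly factors ISCA1, BOLA3 and GLRX5 were at 0.06, -0.02 and 0.15 at the high dose.

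**Figure D4:**
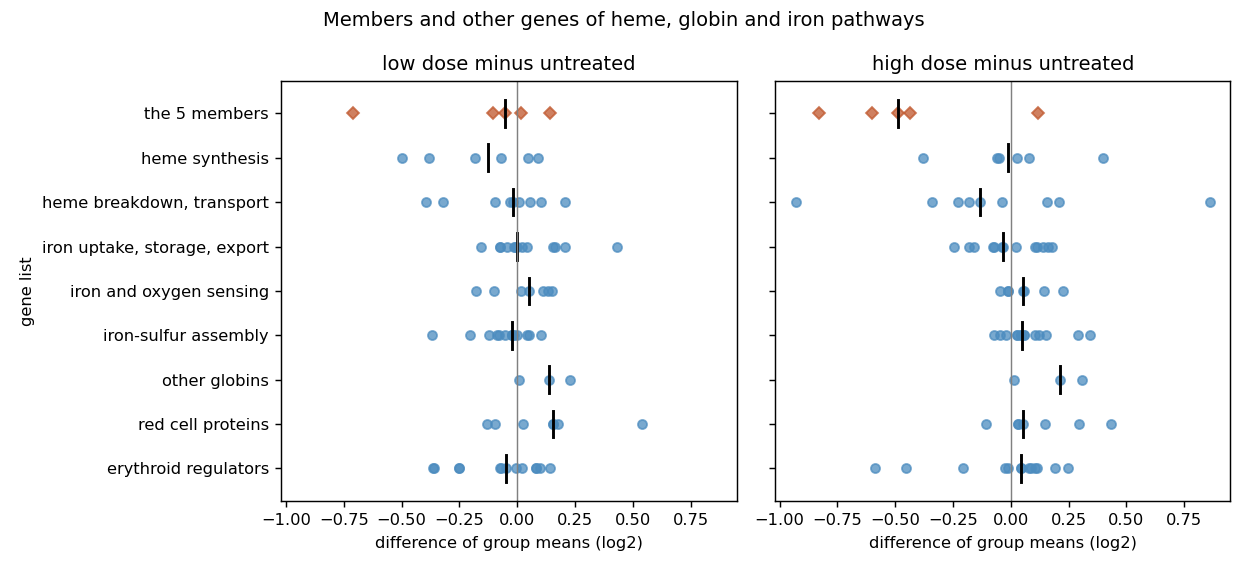
Differences of group means on the log2 scale for the 5 members (diamonds) and for the measured genes of 8 pathway lists (circles, each gene by its brightest probe set), with the low dose against untreated on the left and the high dose on the right; black ticks are medians. The members' median is at -0.49 on the right, where 4 of the 5 are below 0. The medians of the other lists lie between -0.13 and 0.21. The members were picked for these contrasts, so nothing is read from their distance to the other lists.

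Of 26 genes for red cell structure and enzymes 7 were measured, and 0 rose and 0 fell. At the high dose 6 of the 7 were higher than in untreated animals, as were 12800 of all 23999 probe sets. The lower gene, EPB41 of the membrane skeleton, was named after its values were seen. It was at -0.11 ± 0.13 at the high dose (limma adjusted p = 0.899), without overlap. The blood group gene RHCE, named after its values were seen, was close to background in every group. Catalase (CAT), the water channel AQP1, the peroxidase PRDX2 and the membrane skeleton gene ADD1 are also expressed outside red cells and were at 0.05, 0.03, 0.29 and 0.03 at the high dose. BPGM, which makes the red cell metabolite that eases oxygen release from hemoglobin, was named after its values were seen. It measured 7.57 and 7.52 at the high dose, 7.77, 7.60 and 7.57 at the low dose and 7.19, 6.98 and 7.16 in untreated animals. All 5 treated animals lay above the untreated ones, by 0.43 ± 0.12 at the high dose and 0.54 ± 0.11 at the low dose (limma adjusted p = 0.405 and 0.998).

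Among the regulators of red cell formation, 13 of 18 genes were measured, and 0 rose and 0 fell. KLF1, the factor that switches on adult beta globin, was named after its values were seen and averaged 5.15 ± 0.12 at the high dose (SD, n = 2) and 5.07 ± 0.09 in untreated animals (SD, n = 3). BNIP3L, which clears mitochondria from maturing red cells and acts in heart muscle too, was at -0.59 ± 0.19 at the high dose (limma adjusted p = 0.475) and -0.37 at the low dose, and on its dimmer probe set at -0.27 and -0.55. The signalling gene STAT5B was at 0.25 at the high dose. JAK2, the kinase of the erythropoietin receptor, measured 5.96 and 7.01 at the high dose and 6.88, 7.02 and 6.92 in untreated animals, so that high-dose replicate 1 alone was low. LMO2, a partner of red cell transcription factors, measured 7.24 and 8.10 at the high dose and 7.81, 8.01 and 7.81 in untreated animals, with the high-dose animals on either side. The remaining globin genes with a probe set were HBE1, the embryonic beta-type chain, which was close to background at 3.48 to 3.86, and the tissue globins CYGB and NGB, at 0.21 and 0.31 at the high dose. In the RefSeq pig annotation HBM lies beside HBZ, the embryonic alpha-type chain, which is not analysed here. Its other neighbour there, LOC100737768, was measured. The brightest probe set of LOC100737768 was at -0.11 ± 0.11 at the high dose (limma adjusted p = 0.872) and -0.11 ± 0.10 at the low dose. Its dimmer probe sets were at -0.10 and -0.04 at the high dose.

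Markers of other cell types were set beside these values, and macrophage markers were mostly lower in the high-dose animals, in which HBM, AHSP and ALAS2 were low. Of 9 measured macrophage markers, 7 were lower and 2 higher at the high dose than in untreated animals, with a median log2 difference of -0.80. In limma 0 passed, as did 0% of all probe sets. An unadjusted p under 0.05 was found for 6 of the 9, against 7.97% of all probe sets. The summed level of the 9 markers was 9.15 to 9.23 at the high dose and 9.78 to 10.42 in untreated animals, and at the low dose it was 9.81 to 10.50. The defining markers CD163, MRC1 and C1QC were all well above background, and CD5L was close to it. The 6 measured fibroblast markers had summed levels of 12.12 to 12.61 at the high dose and 12.96 to 13.36 in untreated animals, a sum carried by DCN and LUM. Of these 6 genes 4 were lower and 2 higher at the high dose, COL3A1 by 0.83 without overlap. The 11 endothelial markers summed to 10.66 to 11.04 and 11.10 to 11.29 in the same groups, with 7 lower and 4 higher and a median log2 difference of -0.06. The 8 neutrophil and monocyte markers, 4 of them close to background, summed to 7.23 to 7.42 and 7.74 to 8.51, but 5 were higher and 3 lower with a median of 0.11, and the lower sum rests on VCAN at -1.60. The 7 smooth muscle markers stood at 12.42 to 12.69 and 12.31 to 13.00, with 4 higher and 3 lower. The 4 platelet markers, 1 of them close to background, stood at 7.57 to 7.59 and 7.38 to 7.51, with 3 higher and 1 lower. The 8 lymphocyte markers, 2 of them close to background, stood at 7.64 to 7.69 and 7.59 to 7.65, with 4 higher and 4 lower. The part of these cells in the lower HBM, AHSP and ALAS2 values was not tested.

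**Figure D5:**
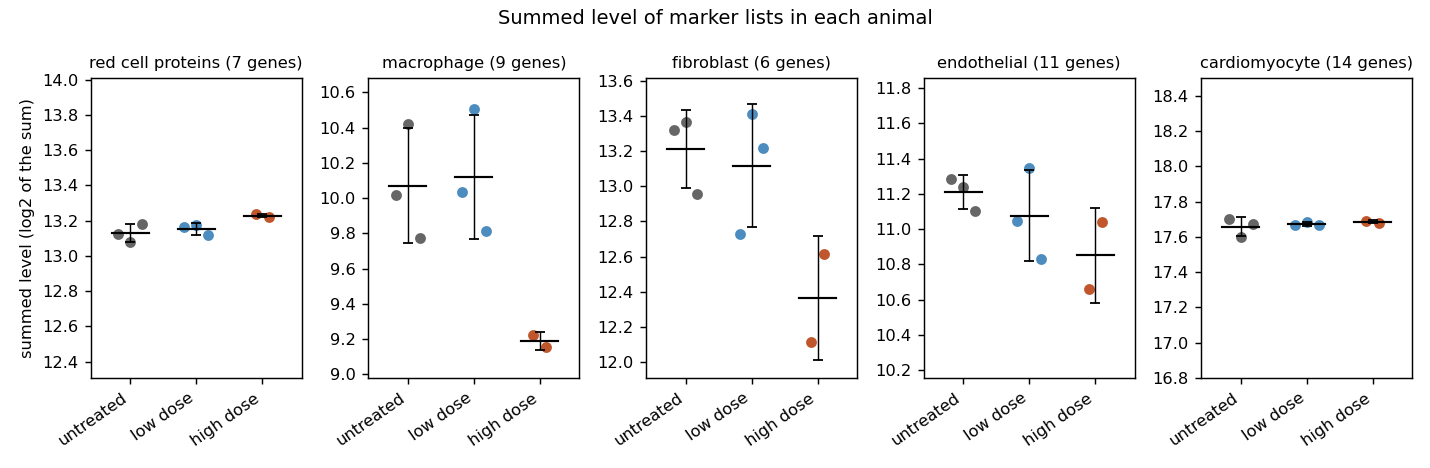
Summed level of 5 marker lists in each animal, as the log2 of the summed unlogged values of the measured genes; points are animals, long bars means and error bars the SD, with untreated, low dose and high dose from left to right. The high-dose animals lie below the untreated ones for the summed levels of macrophage, fibroblast and endothelial markers. Single genes went both ways, with 7 lower and 2 higher, 4 lower and 2 higher, and 7 lower and 4 higher in these lists. The red cell list stands at 13.22 to 13.24 at the high dose, above 13.08 to 13.18 in untreated and 13.12 to 13.18 in low-dose animals. Its sum is carried by CAT, AQP1 and PRDX2, which are also expressed outside red cells. The cardiomyocyte list lies between 17.60 and 17.70 in every animal.

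RNA integrity was not fully alike in all groups. The gap between the 3' and 5' control probe sets of actin, which widens as RNA degrades, ran between 5.48 and 6.04 in low-dose animals, against 4.88 to 5.26 in untreated ones, with no overlap, and for GAPDH it was 1.32 to 1.62 and 1.09 to 1.65. At the high dose the actin gap was 4.92 to 5.18, within the untreated range, and IREB2 was as low there as at the low dose, where the part of RNA integrity was not tested. The animals' tag numbers formed 3 neighbouring pairs, and the labels do not say what a tag series stands for. One pair was untreated replicates 1 and 3, and another was both high-dose animals, so an effect of that tag series and of the high dose cannot be told apart. The remaining pair, low-dose replicate 1 and untreated replicate 2, crossed groups. Within it IREB2 was 0.48 lower in the low-dose animal, at 5.67 against 6.15, HBB was 0.30 lower, and HBM, AHSP and ALAS2 were 0.09, 0.12 and 0.04 higher.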

How the data were processed

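RNA of 8 pigs was measured on 1 array each. The deposited values, on a log2 scale, cover 24123 probe sets. RMA and Partek 6.6 are named in the submitters' processing notes, with no settings. Per the labels' protocols, Trizol was used for extraction and biotin for labelling. After 124 control probe sets were left out, 23999 were tested, of which 10069 carried 1 symbol in the supplied platform annotation, 198 several and 13732 none.

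limma 3.58.1 in R 4.3.3 fitted a mean per group to all 8 arrays (5 residual and 3.50 prior degrees of freedom), with Benjamini-Hochberg adjustment over all probe sets and a threshold of 0.05. The code was tested on simulated data. Each animal is a separate pig, and replicate numbers follow sample order. Correlations between members carry no test. Members and gene lists were chosen with earlier results of these data known. All members, and all measured genes of heme synthesis, iron sensing and other globins, could be named, as could the 4 brightest of each other list, any gene that passed, and up to 5 genes most like each member. Most exceptions are marked. NPPB, NPPA, CD5L and COL3A1 also fell outside this rule, carry no mark above and are to be read like the marked genes. LOC100737768 was named as the neighbour of HBM. The brightest probe set stood for a gene. No probe, promoter or protein sequence was used, and no genome coordinates are given. Alternatives were median centring, renewed quantile normalization, fits of 2 groups, array weights, other variance priors, a filter on dim probe sets, a looser threshold and left-out animals.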

Additional observations from a re-analysis of the deposited data

How the results depend on the processing

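The members' log2 differences kept their sign under all alternatives run for high dose against untreated and for high against low dose, and IREB2 did so for low dose against untreated as well. Leaving out 1 animal gave -0.70 to -0.27 for AHSP, -0.83 to -0.37 for ALAS2, -0.55 to -0.33 for HBM, -0.89 to -0.77 for IREB2 and 0.07 to 0.17 for HBB at the high dose against untreated. For high against low dose it gave -0.72 to -0.29 for AHSP, -0.78 to -0.31 for ALAS2, -0.71 to -0.41 for HBM, -0.23 to -0.05 for IREB2 and 0.09 to 0.36 for HBB. For low dose against untreated it gave -0.78 to -0.60 for IREB2, and differences of either sign for HBB (-0.24 to 0.03), HBM (-0.03 to 0.28), AHSP (-0.03 to 0.07) and ALAS2 (-0.09 to 0.01). 0 members and 0 of the 73 pathway genes passed under any normalization, 2-group, array weight or left-out-animal alternative.

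The count of passing probe sets for high dose against untreated, 0 as reported, was 3 with median centring, 9 with renewed quantile normalization, 2 with only these groups, 13 with array weights, 4 with an intensity trend, 7 with a robust prior, 10 at an adjusted p under 0.10, 55 without the 2 animals whose neighbouring tag numbers cross groups, and 0 to 19 when 1 animal was left out (19 without untreated replicate 2). For high against low dose, 6 as reported, it was 0 with only these groups, 10 with array weights, 12 without those 2 animals, 1 among probe sets above the median, 14 at 0.10, and 0 to 7 when 1 animal was left out, with 0 or 1 passing without untreated replicates 1 or 3, low-dose replicates 2 or 3, or either high-dose animal. For low dose against untreated it was 1 without those 2 animals and 0 when any 1 animal was left out. The cause was not tested. The correlation of HBB and IREB2, -0.02, was 0.048 by Spearman's rho and 0.013 after median centring, and that of AHSP and IREB2, 0.45, was -0.20 without the 2 animals farthest from the AHSP median. Each member had 1 probe set, so averaging probe sets was not run. No paired analysis was possible because the labels give no replicate numbers. With 2 or 3 arrays a group, the number of animals limits the precision, and AHSP lies close to background. Of 42 named genes examined, 0 had every high-dose animal on one side of the untreated mean and every low-dose animal on the other.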
